A study of Mus musculus with 24 samples.

Results

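The miR-15/16 seed family was followed in mouse soleus through 6 of the 584 microRNA assays of the study, chosen by name as the assays for miR-15a, miR-15b, miR-16, miR-195, miR-322 and miR-497. MicroRNA levels were measured by TaqMan real-time PCR in the soleus, a postural calf muscle, of 12 male mice aged 12 weeks, in 4 groups of 3. MCK-PPARa mice carried a transgene for the nuclear receptor PPARα and MCK-PPARb mice one for PPARβ, both described as muscle-specific, and MCK stands for muscle creatine kinase. NTGa and NTGb were the wild-type, non-transgenic littermates of the respective lines. No treatment was given in any group. Both receptors are known to raise the transcription of genes that burn fatty acids. The cards measured no messenger RNA, so the transgenes themselves were not checked here, and whether each line rests on more than 1 founder is not given in the sources used here.

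A microRNA pairs with messenger RNAs mainly through its seed, the stretch near its 5′ end, and lowers the output of the messages it pairs with. The family is known for holding back cell division, since its targets include cyclins and other cell cycle genes, and the survival gene Bcl2. miR-15a and miR-16 are known as tumour suppressors lost in human chronic lymphocytic leukaemia. miR-195 and miR-497 are tied to the exit of heart and skeletal muscle cells from the cell cycle, and miR-322, whose human counterpart is miR-424, to the quiescence of differentiating myoblasts.

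All 6 names were matched to mature sequences in RefSeq (build GRCm38.p6), 2 of them (miR-195 and miR-497) through a RefSeq synonym, as miR-195a-5p and miR-497a-5p. The sequences are printed because the shared seed defines the family and the bases after it are what an assay can tell apart. Capitals mark the seed, bases 2 to 8, which was the same in 6 of 6 members. The last line is miR-503, the neighbour of miR-322, whose seed differs from that of the family in its last base.
miR-15a: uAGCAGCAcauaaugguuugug
miR-15b: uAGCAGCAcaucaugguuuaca
miR-16: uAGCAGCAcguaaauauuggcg
miR-195: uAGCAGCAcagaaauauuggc
miR-497: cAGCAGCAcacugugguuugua
miR-322: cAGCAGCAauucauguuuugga
miR-503: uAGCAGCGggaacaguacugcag

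Outside the seed the members differed. miR-16 and miR-195 were the closest pair, with 2 different bases in the 21 compared from the 5′ end without gaps, and miR-15a and miR-15b differed at 4 of 22. miR-16 and miR-497 were the farthest apart, with 11 of 22 different. Whether the miR-16 and miR-195 assays detect each other's target was not tested. In RefSeq 10 mature mouse microRNAs carried this seed, and the other 4 (miR-195b, miR-6342, miR-6353 and miR-6419) had no assay of that name on the cards.

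The members come from 4 loci. miR-15a lies at chr14:61632075-61632096 on the minus strand and shares its locus with 1 copy of miR-16 (chr14:61631936-61631957), both inside the lncRNA gene Dleu2, with 54 bases between the hairpins. miR-15b (chr3:69009775-69009796, plus strand) lies with the other copy of miR-16 (chr3:69009918-69009939) inside the protein-coding gene Smc4, with 66 bases between the hairpins. The mature miR-16 is the same at both loci, so the miR-16 assay measures their sum. miR-497 (chr11:70234730-70234751, plus strand) and miR-195 (chr11:70235062-70235082, plus strand) have 241 bases between their hairpins, and the Mir497 hairpin overlaps Mir497b on the opposite strand. miR-322 (chrX:53054306-53054327, minus strand) and miR-503 (chrX:53054027-53054049) lie inside the lncRNA gene C430049B03Rik, with 200 bases between the hairpins.

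All 6 members sat on card A with 1 well per animal and were detected in 12 of 12 animals, so all 6 passed the filter on low values. The cycle threshold (Ct) is the PCR cycle at which a well's signal crosses a set level, and a lower Ct means more template. miR-16 had the lowest Ct of the family, with a mean of 21.5 ± 0.483 (SD over 12 animals), the tenth lowest (rank 10) of the 149 card A microRNAs detected in every animal. miR-195 followed at 24.0 ± 0.533, then miR-322 at 28.2 ± 0.735, miR-497 at 28.5 ± 0.498, miR-15b at 30.1 ± 0.854 and miR-15a at 30.9 ± 0.831. Ct values of different assays also reflect how well each assay amplifies, so this order is not a measured order of molecules. Levels below are log2 relative abundances, the mean Ct of those 149 microRNAs minus the Ct of the member in the same animal, so that 1 unit is a 2-fold change if template doubles in each cycle.

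Of the 7 muscle markers, miR-1, miR-133a, miR-133b, miR-206 and miR-486 had a Ct of 17.0 to 24.5 in all 12 animals. miR-499, of slow muscle, had a Ct of 27.5 to 28.1 outside MCK-PPARa and 31.3 to 32.2 in it, a log2 change of -3.66 against NTGa (limma adjusted p = 3.94e-05), and miR-208b was detected in 0 of 3 MCK-PPARa animals and in 9 of 9 others. The part of these in the family's values was not tested. The liver microRNA miR-122 was detected in 1 animal, in MCK-PPARb. Of the 5 epithelial markers, miR-203 was detected in 12 of 12 animals and miR-200c in 9, and miR-200a, miR-200b and miR-205 in 1, 3 and 1. The log2 change of miR-200c was 2.07 (SE 1.15, limma adjusted p = 0.559) in MCK-PPARb and -0.40 (limma adjusted p = 0.87) in MCK-PPARa, and that of miR-203 0.09 and 0.24. Of the 584 assays, 248 to 296 were detected per animal, and NTGb replicate 2 had the most. MCK-PPARa replicate 1 stood apart from the rest: its median correlation with them over the 268 tested assays was 0.933, where every other animal reached 0.96 to 0.974. For each member in each transgene comparison, the value without the animal of these 2 that enters it is given beside the result.

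No member passed the test in MCK-PPARa against NTGa: 0 of 6 had an adjusted p under 0.05 in limma, a linear model fitted over all 268 tested assays and 12 animals, where 2.24% of all assays passed. At an unadjusted p under 0.05 there were 2 of 6 members (miR-195 and miR-322), beside 16.4% of all assays. The members did not lie on one side: 3 of 6 values were above 0 and 3 below, with a median log2 change of 0.20 beside 0.12 over all assays, of which 58.6% were above 0. Groups did not overlap for 1 of 6 members (miR-195), beside 25.7% of all assays.

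In MCK-PPARb against NTGb 0 of 6 passed, as did 0% of all assays, and 0 of 6 members had an unadjusted p under 0.05, beside 8.58% of all assays. There too 3 of 6 values were above 0, with a median of -0.05 beside 0.02 over all assays, of which 51.1% were above 0. Groups did not overlap for 2 of 6 members (miR-195 and miR-497), beside 15.3% of all assays.

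**Figure D1:**
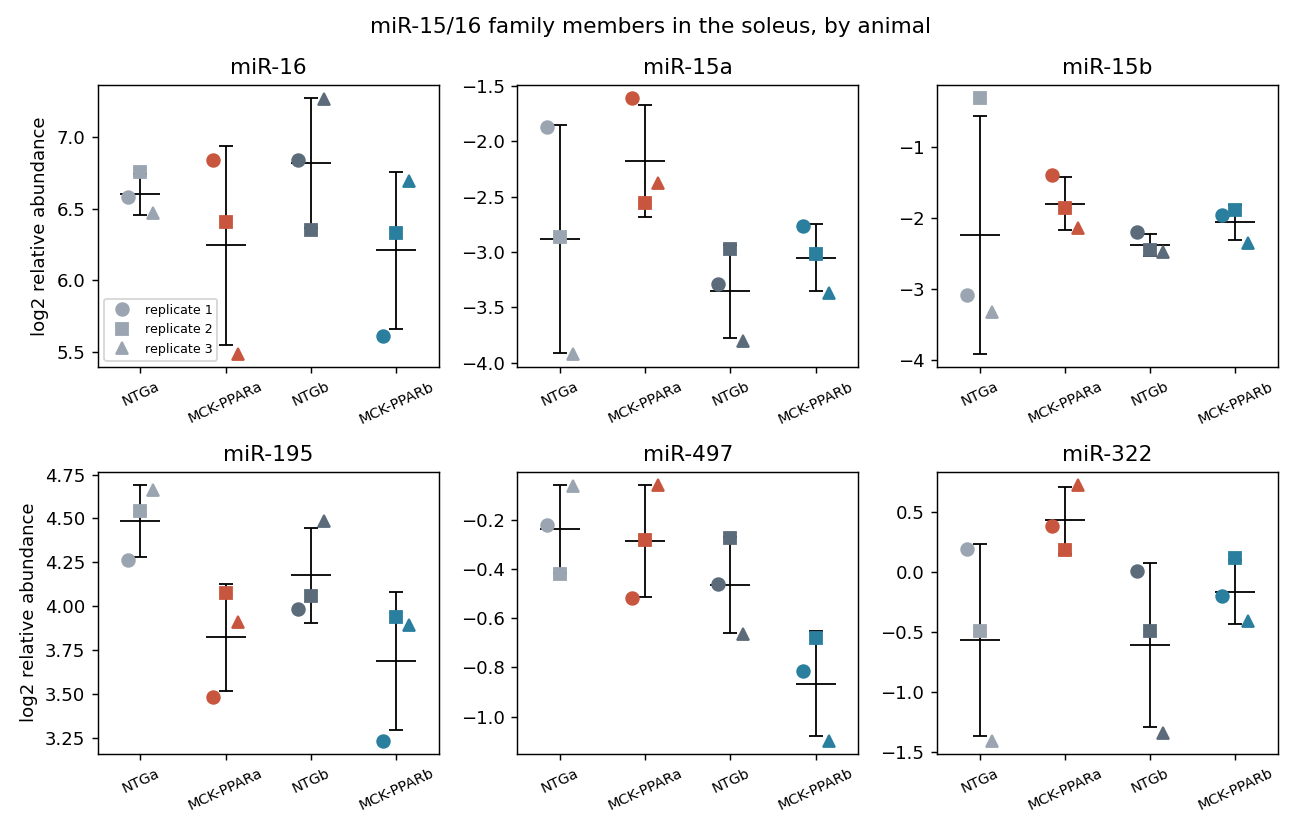
Log2 relative abundance (y axis, cycles relative to the card mean) of the 6 members in each of the 12 animals, by group (x axis). Circles, squares and triangles are replicates 1, 2 and 3, horizontal lines are group means and bars are 1 SD (n = 3). In miR-195 every transgenic animal lies below every littermate control of its line, beside 10.8% of all assays in the PPARα line and 4.48% in the PPARβ line. In miR-15b NTGa replicate 2 (-0.30) stands far above the other NTGa animals (-3.08 and -3.33).

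After scaling, miR-195 was lower in every transgenic animal than in any littermate control of the same line, while the unscaled Ct overlapped in the PPARβ line. Its Ct was 23.5, 23.1 and 23.3 in NTGa and 24.6, 23.9 and 24.0 in MCK-PPARa. Its log2 level was 4.26, 4.54 and 4.66 in NTGa and 3.48, 4.07 and 3.91 in MCK-PPARa. The groups did not overlap before or after scaling, and after it the same held for 10.8% of all assays that were lower in MCK-PPARa. The log2 change was -0.67 (SE 0.27, 95% interval -1.26 to -0.07, limma adjusted p = 0.256), which did not pass. Without MCK-PPARa replicate 1 it was -0.50.

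In the PPARβ line the Ct of miR-195 was 24.4, 23.5 and 24.0 in NTGb and 24.9, 24.1 and 24.2 in MCK-PPARb. The log2 level was 3.98, 4.06 and 4.49 in NTGb and 3.23, 3.94 and 3.89 in MCK-PPARb. The scaled levels did not overlap either, but the unscaled Ct did, since NTGb replicate 1 was above 2 of 3 MCK-PPARb animals. The highest MCK-PPARb animal and the lowest NTGb animal were also close after scaling, at 3.94 and 3.98, and 4.48% of all assays were lower in MCK-PPARb without overlap. The change was -0.49 (SE 0.27, 95% interval -1.08 to 0.11, limma adjusted p = 0.559), and without NTGb replicate 2 it was -0.55. It was -0.26 without MCK-PPARb replicate 1 and -0.18 with U6 snRNA, a small RNA often used as reference, in place of the card mean. By group mean the order ran NTGa (4.49 ± 0.206, SD, n = 3), NTGb (4.18 ± 0.273), MCK-PPARa (3.82 ± 0.306) and MCK-PPARb (3.69 ± 0.395), and each neighbouring pair in this order overlapped.

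miR-497, encoded beside miR-195, did not follow it in the PPARα line. Its Ct was 28.0, 28.1 and 28.0 in NTGa and 28.6, 28.2 and 28.0 in MCK-PPARa. The log2 levels overlapped, at -0.22, -0.42 and -0.06 in NTGa and -0.52, -0.28 and -0.06 in MCK-PPARa. The change was -0.05 (SE 0.22, 95% interval -0.53 to 0.43, limma adjusted p = 0.893), and its sign turned with the median as reference (0.06) and without MCK-PPARa replicate 1 (0.07). In the PPARβ line the Ct was 28.9, 27.8 and 29.1 in NTGb and 28.9, 28.7 and 29.2 in MCK-PPARb. On the log2 scale NTGb stood at -0.46, -0.27 and -0.66 and MCK-PPARb at -0.82, -0.68 and -1.10. MCK-PPARb was below NTGb in every animal after scaling, by a log2 change of -0.40 (SE 0.22, 95% interval -0.88 to 0.08, limma adjusted p = 0.559), or -0.30 without NTGb replicate 2. The unscaled Ct values overlapped, and with U6 as reference the change was -0.088. miR-497 had the smallest spread of the family, a residual SD of 0.21 where the median of 69 microRNAs at Ct 25 to 30 was 0.32.

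miR-322, of the X-linked locus, had the largest value of the family in MCK-PPARa. Its Ct was 27.6, 28.2 and 29.3 in NTGa and 27.7, 27.8 and 27.2 in MCK-PPARa. Its log2 level was 0.19, -0.49 and -1.41 in NTGa and 0.38, 0.18 and 0.73 in MCK-PPARa. NTGa replicate 1 (0.193) lay just above the lowest MCK-PPARa animal (0.182), so the groups overlapped. The log2 change was 1.00 (SE 0.43, 95% interval 0.05 to 1.95, limma adjusted p = 0.289), and did not pass. It was 1.02 without MCK-PPARa replicate 1 and 0.58 without NTGa replicate 3.

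For the PPARβ line the Ct of miR-322 was 28.4, 28.1 and 29.8 in NTGb and 28.3, 27.9 and 28.5 in MCK-PPARb. The log2 levels overlapped, at 0.01, -0.49 and -1.34 in NTGb and -0.20, 0.12 and -0.41 in MCK-PPARb. The change was 0.44 (SE 0.43, limma adjusted p = 0.816), or 0.50 without NTGb replicate 2, and 0.08 without NTGb replicate 3 to 0.75 without NTGb replicate 1. With U6 as reference it was 0.76 and with the median 0.26. By group mean miR-322 stood highest in MCK-PPARa (0.43 ± 0.277, SD, n = 3), followed by MCK-PPARb (-0.16 ± 0.266), a difference that was not tested. MCK-PPARb overlapped with NTGa (-0.57 ± 0.802), and NTGa with NTGb (-0.61 ± 0.682).

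miR-16, the member of lowest Ct, had negative values in both lines. Its Ct was 21.2, 20.9 and 21.5 in NTGa and 21.2, 21.6 and 22.4 in MCK-PPARa. The log2 level was 6.58, 6.75 and 6.47 in NTGa and 6.84, 6.41 and 5.49 in MCK-PPARa, where replicate 1 was above every control and replicate 3 far below. The change was -0.36 (SE 0.39, 95% interval -1.22 to 0.51, limma adjusted p = 0.745). It was 0.02 without MCK-PPARa replicate 3 and -0.66 without MCK-PPARa replicate 1. In the PPARβ line the Ct was 21.6, 21.2 and 21.2 in NTGb and 22.5, 21.7 and 21.4 in MCK-PPARb. The log2 level was 6.84, 6.35 and 7.26 in NTGb and 5.61, 6.33 and 6.69 in MCK-PPARb, with overlap. The change was -0.61 (SE 0.39, 95% interval -1.47 to 0.25, limma adjusted p = 0.609), or -0.84 without NTGb replicate 2. It was -0.31 without MCK-PPARb replicate 1, -0.39 without NTGb replicate 3 and -0.30 with U6 as reference. The residual SD of miR-16 was 0.50, larger than that of 92.9% of the 28 microRNAs below Ct 25, whose median was 0.26. By group mean the order ran NTGb (6.82 ± 0.454, SD, n = 3), NTGa (6.60 ± 0.144), MCK-PPARa (6.24 ± 0.692) and MCK-PPARb (6.21 ± 0.547), with overlap between all neighbours.

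miR-15a, made beside a miR-16 copy, had positive values in both lines. Its Ct was 29.6, 30.5 and 31.8 in NTGa and 29.7, 30.5 and 30.3 in MCK-PPARa. Its log2 level was -1.87, -2.87 and -3.92 in NTGa and -1.61, -2.56 and -2.38 in MCK-PPARa. NTGa spanned over 2 units and enclosed 2 of 3 MCK-PPARa animals. The change was 0.70 (SE 0.47, 95% interval -0.34 to 1.75, limma adjusted p = 0.52). It was 0.42 without MCK-PPARa replicate 1, 0.19 without NTGa replicate 3 and 1.21 without NTGa replicate 1.

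The Ct of miR-15a in the PPARβ line was 31.7, 30.5 and 32.2 in NTGb and 30.9, 31.0 and 31.5 in MCK-PPARb. The log2 level was -3.29, -2.97 and -3.80 in NTGb and -2.77, -3.01 and -3.37 in MCK-PPARb, with overlap. The change was 0.30 (SE 0.47, limma adjusted p = 0.882), or 0.50 without NTGb replicate 2. It was 0.16 without MCK-PPARb replicate 1, 0.46 without MCK-PPARb replicate 3 and 0.08 without NTGb replicate 3, and 0.62 with U6 and 0.12 with the median as reference. By group mean the order ran MCK-PPARa (-2.18 ± 0.504, SD, n = 3), NTGa (-2.88 ± 1.03), MCK-PPARb (-3.05 ± 0.302) and NTGb (-3.35 ± 0.421), and each neighbouring pair overlapped.

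miR-15b, from the Smc4 locus, turned on a single animal. Its Ct was 30.9, 28.0 and 31.3 in NTGa and 29.4, 29.8 and 30.0 in MCK-PPARa. On the log2 scale it stood at -3.08, -0.30 and -3.33 in NTGa and -1.39, -1.86 and -2.14 in MCK-PPARa. NTGa replicate 2 was thus 2.90 log2 units, or 7.46-fold, above the mean of the other 2 NTGa animals. Among the 1788 values of the 149 card A microRNAs detected in all animals, this was the farthest that any value lay from the rest of its group. miR-15b rests on 1 well per animal, so a repeat of this measurement was not analysed here.

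With all animals the change of miR-15b was 0.44 (SE 0.64, 95% interval -0.97 to 1.85, limma adjusted p = 0.811). Without NTGa replicate 2 it was 1.41 (limma adjusted p = 0.0262) and the only member to pass, and it was -0.10 without NTGa replicate 3, 0.02 without NTGa replicate 1 and 0.24 without MCK-PPARa replicate 1. With U6 as reference it was 0.25. In the PPARβ line the Ct was 30.6, 30.0 and 30.9 in NTGb and 30.1, 29.9 and 30.5 in MCK-PPARb. Its log2 level was -2.19, -2.45 and -2.48 in NTGb and -1.95, -1.89 and -2.35 in MCK-PPARb. These groups overlapped through MCK-PPARb replicate 3, and the change was 0.31 (SE 0.64, limma adjusted p = 0.882), or 0.28 without NTGb replicate 2, 0.63 with U6 and 0.13 with the median as reference. The SE is shared over all 4 groups and so holds the spread of NTGa, whose SD was 1.68 where NTGb had 0.157. By group mean the order ran MCK-PPARa (-1.80 ± 0.376, SD, n = 3), MCK-PPARb (-2.06 ± 0.248), NTGa (-2.24 ± 1.68) and NTGb (-2.38 ± 0.157), with overlap between all neighbours.

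The comparisons of the 2 lines share no animals, and the sign was the same in both for 6 of 6 members, as for 57.5% of the 268 assays. miR-16, miR-195 and miR-497 were below 0 in both, and miR-15a, miR-15b and miR-322 above 0. The sign of miR-497 in the PPARα line depended on the reference, as given above. The mean of the effects of both transgenes, a comparison added after the data were seen, was also fitted. Again 0 of 6 members passed, beside 2.24% of all assays, and 2 of 6 (miR-195 and miR-322) had an unadjusted p under 0.05, beside 13.8%. Here 3 of 6 values were above 0, beside 54.9% of all assays. miR-195 stood at -0.58 (SE 0.19, 95% interval -0.998 to -0.157, limma adjusted p = 0.211). After scaling it was lower without overlap in each line, beside 10.8% of all assays in the PPARα line and 4.48% in the PPARβ line. The share of assays lower without overlap in both lines was not counted, and the unscaled Ct of miR-195 overlapped in the PPARβ line. miR-322 stood at 0.72 (SE 0.30, 95% interval 0.05 to 1.39, limma adjusted p = 0.291). miR-16 was at -0.48, miR-15a at 0.50, miR-15b at 0.38 and miR-497 at -0.23, with 95% intervals that included 0. Without MCK-PPARa replicate 1 miR-195 was at -0.49 and miR-322 at 0.73, and without NTGb replicate 2 at -0.61 and 0.75. miR-15a ranged from 0.25 to 0.76, miR-15b from 0.10 to 0.86 and miR-16 from -0.63 to -0.29 over the 12 fits that each left out an animal.

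**Figure D2:**
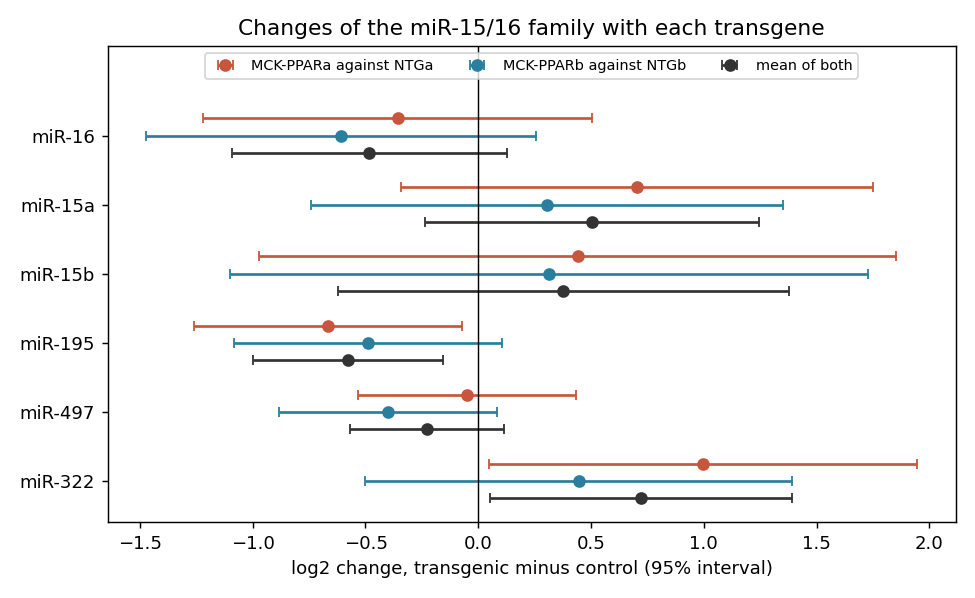
Log2 change (x axis) of each member in MCK-PPARa against NTGa, in MCK-PPARb against NTGb and as the mean of both, with 95% intervals from the limma fit over 12 animals. The points of each member lie on the same side of 0, and the intervals that leave out 0 are those of miR-195 and miR-322 in MCK-PPARa and in the mean, none of which passed after adjustment.

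Whether a member responded unequally to the 2 receptors was tested as the change in MCK-PPARa minus that in MCK-PPARb. 0 of 6 members passed, beside 1.12% of all assays, and 0 had an unadjusted p under 0.05, beside 10.4%. With the card mean as reference the largest difference was that of miR-322, 0.55 (SE 0.61, 95% interval -0.79 to 1.89, limma adjusted p = 0.79). It was 0.58 without MCK-PPARa replicate 1 and 0.49 without NTGb replicate 2, and ran from 0.13 without NTGa replicate 3 to 0.93 without NTGa replicate 1. With U6 as reference miR-322 was at 0.05, and the largest was that of miR-195, at -0.68. The value of the others was 0.40 for miR-15a, 0.35 for miR-497, 0.25 for miR-16, 0.13 for miR-15b and -0.18 for miR-195. Without MCK-PPARa replicate 1 these were 0.11, 0.47, -0.05, -0.07 and -0.01, and without NTGb replicate 2 they were 0.21, 0.25, 0.48, 0.17 and -0.12, in the same order. The interval of miR-15b, -1.87 to 2.13, was the widest, so an unequal response of either sign within it remains possible. What size of unequal response could be detected was not tested.

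The control groups were compared in the same way, NTGa against NTGb. 0 of 6 members passed, beside 1.87% of all assays, and 0 had an unadjusted p under 0.05, beside 15.7%. The value was 0.47 for miR-15a, 0.31 for miR-195, 0.23 for miR-497, 0.14 for miR-15b, 0.04 for miR-322 and -0.22 for miR-16, so 5 of 6 were above 0, beside 47.4% of all assays. The groups overlapped for 6 of 6 members, where 19.4% of all assays did not overlap, 9.70% in each direction. Without NTGb replicate 2 the values were 0.66, 0.25, 0.33, 0.10, 0.10 and -0.45 in the same order. With U6 as reference they were 1.02, 0.86, 0.78, 0.69, 0.59 and 0.33.

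Members made from one locus can be set against each other within an animal without any reference. The difference in Ct between miR-497 and miR-195 was 4.48, 4.96 and 4.72 in NTGa and 3.996, 4.355 and 3.967 in MCK-PPARa. All 3 MCK-PPARa animals were below all NTGa animals, by 0.62 on average (exact permutation test, two-sided, p = 0.1, the smallest that 3 against 3 allows, and 0.48 after Benjamini-Hochberg adjustment over 8 such tests). The same difference in the PPARβ line was 4.44, 4.33 and 5.15 in NTGb and 4.05, 4.62 and 4.99 in MCK-PPARb, which overlapped (exact p = 0.9). Whether the lines differ in this was not tested.

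miR-15a relative to miR-16 was 1.06 higher in MCK-PPARa than in NTGa (exact p = 0.3) and 0.91 higher in MCK-PPARb than in NTGb (exact p = 0.3). miR-15b relative to miR-16 was 0.80 higher (exact p = 0.4) and 0.92 higher (exact p = 0.2). The groups overlapped in each of these 4 comparisons. miR-322 relative to miR-503 was 0.62 higher in MCK-PPARa (exact p = 0.3) and 0.07 lower in MCK-PPARb, at -0.07 (exact p = 0.9).

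The other arms of the same hairpins were measured on card B for 4 of 6 members, and 3 of these could be tested. None passed in either line. In MCK-PPARa miR-322* stood at 0.23 (SE 0.38), miR-16* at 0.37 (SE 0.38) and miR-15a* at -0.10 (SE 0.27), each within its SE of 0. There the signs of miR-15a* and miR-16* were opposite to the main strand. In MCK-PPARb miR-322* stood at -0.30, miR-16* at -0.59 and miR-15a* at -0.35, and the signs of miR-322* and miR-15a* were the opposite ones. miR-16* was undetected in 2 of 3 MCK-PPARb animals and 1 of 3 NTGb animals, which limits its value, and miR-15b* was detected in 2 of 12 animals and not tested.

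Of the neighbours of miR-322 on the X chromosome, 8 of 9 had an assay and 2 could be tested. miR-503, which shares part of the seed, was at 0.38 (SE 0.55) in MCK-PPARa and 0.52 (SE 0.55) in MCK-PPARb. Its other arm, miR-503*, was at 0.46 (SE 0.30) and -0.60 (SE 0.30), and its difference between the lines, 1.06 (SE 0.42, limma adjusted p = 0.331), did not pass. The other 6 were each detected in 0 to 3 of 12 animals. miR-103 and miR-107, whose related seed is shifted by a base, were at 0.16 and 0.94 in MCK-PPARa and at 0.31 and 0.21 in MCK-PPARb, and neither passed. miR-107 was undetected in 2 of 3 NTGa animals.

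Across the 12 animals the member most like another was miR-322 for miR-15a. Pearson r was 0.811 and Spearman rho 0.825, and among 148 other card A microRNAs detected in all animals miR-322 ranked first for miR-15a and miR-15a ranked second for miR-322. Within groups, after each group mean was taken off, r was 0.761. It was 0.872 without the 2 animals farthest from the median of miR-15a and 0.798 to 0.87 with U6 snRNA, with all endogenous small RNA controls or with no scaling. These correlations are descriptions: the points share their RNA, card and reference, and the animals form 4 groups.

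**Figure D3:**
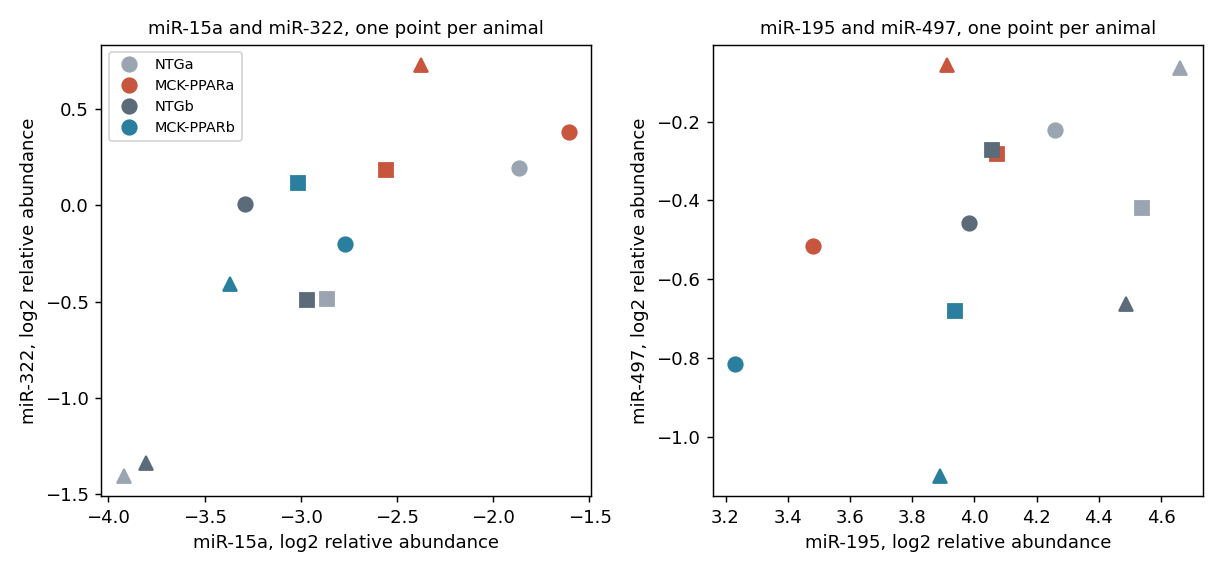
Log2 relative abundance of miR-322 against miR-15a and of miR-497 against miR-195, 1 point per animal, with groups by colour and replicates 1, 2 and 3 as circles, squares and triangles. miR-15a and miR-322, from different chromosomes, go together (r = 0.811), with NTGa and NTGb replicate 3 lowest in both, while miR-195 and miR-497, from one locus, are scattered more widely (r = 0.435).

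Members of one locus were less alike on this measure. r was 0.435 for miR-195 and miR-497 (0.705 with no scaling and 0.108 without the 2 animals farthest from the median of miR-195), -0.255 for miR-15a and miR-16, and 0.0418 for miR-15b and miR-16. With U6 as reference these were 0.72, -0.00806 and 0.058. Without the 2 farthest animals miR-15a and miR-16 stood at -0.686 and miR-15b and miR-16 at -0.158. The lowest r among the 15 pairs was -0.596, of miR-195 and miR-322, where U6 snRNA as reference gave -0.0155, no scaling -0.113 and the endogenous controls -0.55. Without the 2 animals farthest from the median of miR-195 it was -0.637.

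The microRNAs most like each member, by r over 12 animals among the same 148, were let-7a (0.855), miR-15a and miR-339-5p (0.803) for miR-322. For miR-195 they were miR-19a (0.894), miR-20b (0.835) and miR-126-5p (0.818), and for miR-497 miR-494 (0.724), miR-204 (0.716) and miR-29b (0.657). Within groups r was 0.826 for miR-494 but 0.298 for miR-204 and 0.00631 for miR-29b. For miR-15b they were miR-10b (0.732), miR-301a (0.557) and miR-340-5p (0.555), whose r was the lowest of those listed over 12 animals. For miR-16 they were miR-126-5p (0.718), the rat miR-1 assay (0.713) and miR-30e (0.7). After miR-322, miR-451 (0.716) and let-7g (0.712) were most like miR-15a, at 0.511 and 0.491 within groups. Within groups r was 0.518 to 0.875 for the others named.

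Markers of other cells were read beside the members. In each line 0 of the 5 tested leukocyte markers and 0 of the 4 fibroblast and smooth muscle markers passed. miR-451, the red cell microRNA and the only one of the 2 red cell markers with an assay, was at 0.58 in MCK-PPARa and 0.53 in MCK-PPARb (limma adjusted p = 0.42 and 0.579). Its log2 level ran from -1.61 to -0.98 in NTGa, -1.09 to -0.06 in MCK-PPARa, -2.04 to -1.31 in NTGb and -1.27 to -0.90 in MCK-PPARb. The groups did not overlap in the PPARβ line, where 10.8% of all assays were likewise higher in MCK-PPARb without overlap. Of the 2 endothelial markers, miR-126-5p, which was close to miR-195 in pattern (r = 0.818), was at -0.85 in MCK-PPARa and -0.37 in MCK-PPARb, and miR-126-3p at 0.27 and -0.10, none passing. The summed level of both, on the log2 scale, ran from 8.95 to 9.15 in NTGa, 8.86 to 9.18 in MCK-PPARa, 8.34 to 9.43 in NTGb and 8.52 to 9.15 in MCK-PPARb. The part of red cells and vessels in the family's values was not tested, and in whole muscle fewer cells of a type and less RNA per cell cannot be told apart.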

How the data were processed

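The labels' protocols name RNAzol B for the extraction of total RNA and 40 PCR cycles for the TaqMan assays. Each of the 12 RNAs was run on cards A and B, giving 24 samples that were joined by animal. Replicates, biological per the labels, were taken as separate animals. Per the file headers, the authors deposited 1 Ct per well, not normalized. The sources used here give neither the software nor the threshold that made it. 0 data columns were left unmatched.

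A microRNA was detected at a Ct under 35. Wells of 1 assay were averaged, an empty well beside a called one counting as Ct 40. Undetected levels were set to a floor of -6.56 (card A) or -5.66 (card B). The 268 tested assays were those detected in every animal of a group. The card B reference was the mean of 59 microRNAs.

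Group means were fitted with limma 3.58.1 (lmFit and eBayes, R 4.3.3) on 8 residual degrees of freedom. Its two-sided p-values were adjusted over those 268 assays (Benjamini-Hochberg). With 3 animals in a group precision is low. In simulated data for MCK-PPARa against NTGa, with 30 of 268 assays changed, the fit recovered 47% of 2-fold and 82.5% of 4-fold changes. A 2-fold change of a member could thus fail to pass. Replicate numbers were not used as pairs in the main fit. Deviations of same-numbered littermates correlated at -0.288 to 0.222, and those of differently numbered ones at -0.325 to 0.245. With 3 animals in a group these values cannot settle whether the numbers pair the animals. Alternatives changed the reference, detection limit, filter, undetected and empty wells, weights, controls and replicate block, and left out each animal. The members, lists and likeness rule were chosen with earlier results of these data known. Beyond the members, the 3 most alike microRNAs and up to 4 of each list are named with values.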

Additional observations from a re-analysis of the deposited data

How the results depend on the processing

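With all animals, 0 members passed in any comparison under any alternative; without NTGa replicate 2, 1 passed in MCK-PPARa (0 to 1 over the animals left out). Signs turned as follows. For miR-497 in MCK-PPARa the value was 0.062 with the median reference, 0.00156 with animal weights, 0.18 against NTGb and 0.065 against all 6 controls. miR-15a in MCK-PPARb was -0.17 against NTGa. In the difference of effects, U6 snRNA gave -0.10 for miR-15a, -0.37 for miR-15b, -0.25 for miR-16 and -0.15 for miR-497, the endogenous controls -0.057 and no scaling -0.10 for miR-15b, and the median 0.12 for miR-195. In NTGa against NTGb, U6 gave 0.33 and no scaling 0.13 for miR-16, the median -0.15 for miR-15b, -0.061 for miR-497 and -0.25 for miR-322, and animal weights -0.19 for miR-322. Leaving out 1 animal gave, in MCK-PPARa, -0.16 to 0.065 for miR-497, -0.66 to 0.022 for miR-16 and -0.10 to 1.41 for miR-15b. It gave, in the difference, -0.12 to 0.91 for miR-15a, -0.42 to 1.09 for miR-15b and -0.046 to 0.63 for miR-16. It gave, between controls, -0.038 to 0.99 for miR-15a, -0.83 to 0.68 for miR-15b, -0.45 to 0.00256 for miR-16 and -0.34 to 0.46 for miR-322. With U6 as reference the median of all assays was 0.03 in MCK-PPARa, 0.33 in MCK-PPARb, -0.35 in the difference and 0.49 between controls, where the card mean gave 0.12, 0.02, 0.06 and -0.03. The replicate block left 0 members passing in each comparison (miR-195 in the mean of both at -0.58, limma adjusted p = 0.103). miR-195 and miR-322 kept their signs in both transgene comparisons and their mean under all of these. The causes were not tested.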
